A study of Oryza sativa with 12 samples.

Results

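Of 57194 rice probe sets, 72 read higher in osmads1 panicles than in wild-type panicles at both lengths sampled, 2 mm and 5-7 mm. A probe set is a group of short DNA probes that together report 1 transcript. The 72 were chosen by the deposited log2 levels themselves. The mean of the 3 osmads1 arrays had to exceed that of the 3 wild-type arrays by at least 0.7 at each length, and every osmads1 array had to lie above every wild-type array. Control probe sets and JAZ2, a jasmonate gene that otherwise meets this rule, were left out. The genotype differences of these 72 probe sets are therefore a description of the choice and carry no test.

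The 4 groups were osmads1 at 2 mm, wild type at 2 mm, osmads1 at 5-7 mm and wild type at 5-7 mm, each with 3 arrays from biological repeats. Per the labels, all plants of both genotypes grew in a paddy field without special treatment, and panicles were taken, the shorter ones at an early and the longer ones at a late stage of flower development. The osmads1 allele, its genetic background, the wild-type cultivar and the number of panicles behind an array are not given in the sources used here. Since a panicle is a mixture of tissues, more cells of a type and more RNA per cell cannot be told apart in these values.

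OsMADS1 encodes a SEPALLATA-type MADS-box transcription factor. In the grass floret it acts in the identity of the floret meristem and of the floral organs, with a large part in the lemma and palea, the green outer organs that enclose the flower. Such factors bind DNA as complexes with other MADS-box proteins, and loss of 1 of them can raise some transcripts and lower others. Genes that are higher in a mutant at both an early and a late stage are one class in such a comparison.

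The targeted gene matched the labels on all 12 arrays. At 2 mm the OsMADS1 probe set read 5.25, 4.27 and 5.04 in osmads1 against 10.57, 10.93 and 10.90 in wild type. At 5-7 mm it read 4.96, 3.85 and 3.49 in osmads1 and 11.61, 11.51 and 11.48 in wild type. The median reading of an array lay from 4.10 to 4.13 in the shorter and from 4.93 to 5.00 in the longer panicles, and levels are therefore not set against each other across lengths on the deposited scale. Of the 8 young panicle markers, OsMADS14, OsMADS15, RFL and OSH1 had group means between 10.03 and 12.00, LAX1 between 7.81 and 10.20, OsMADS34 between 8.61 and 9.77, FON1 between 7.65 and 8.42 and FZP between 3.48 and 5.03. By limma 1 of the 8 was lower in osmads1 at 2 mm, and 6 were higher and 1 lower at 5-7 mm. The difference between the 3' and 5' readings of a GAPDH control, which depends on how intact and how fully labelled the RNA is, was 2.58 ± 0.059 in osmads1 against 3.58 ± 0.042 in wild type at 2 mm (SD, n = 3). It was 2.24 ± 0.44 and 2.10 ± 0.16 at 5-7 mm, where the arrays of the genotypes overlapped, and its part in the differences at 2 mm was not tested. Of the 6 such control pairs, 4 had lower values in osmads1 with no overlap at 2 mm, by less in the actin (4.59 against 5.11), cyclophilin (1.12 against 1.37) and ubiquitin (0.25 against 0.51) pairs, and in the other two the arrays overlapped.

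The 72 probe sets were 0.126% of those measured. Of the 971 probe sets that met the rule's condition at 2 mm (1.7% of all), they were 7.42%, and of the 1754 that met that at 5-7 mm (3.07% of all), 4.10%. A further 362 of the 971 were higher at 2 mm and lower at 5-7 mm by the same measure, and 73 probe sets were lower at both lengths. With limma, a linear model fitted over all probe sets, 71 of the 72 were called higher at 2 mm and 72 at 5-7 mm (background 5.5% and 10.2%), which the choice of members largely fixes. Their median difference was 1.20 at 2 mm (range 0.71 to 8.68) and 1.19 at 5-7 mm (range 0.71 to 8.66), against -0.013 and -0.0077 over all probe sets. Differences of at least 1 log2 unit, a doubling, were seen for 49 members at 2 mm and 46 at 5-7 mm, and of at least 2 units for 15 and 19.

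**Figure D1:**
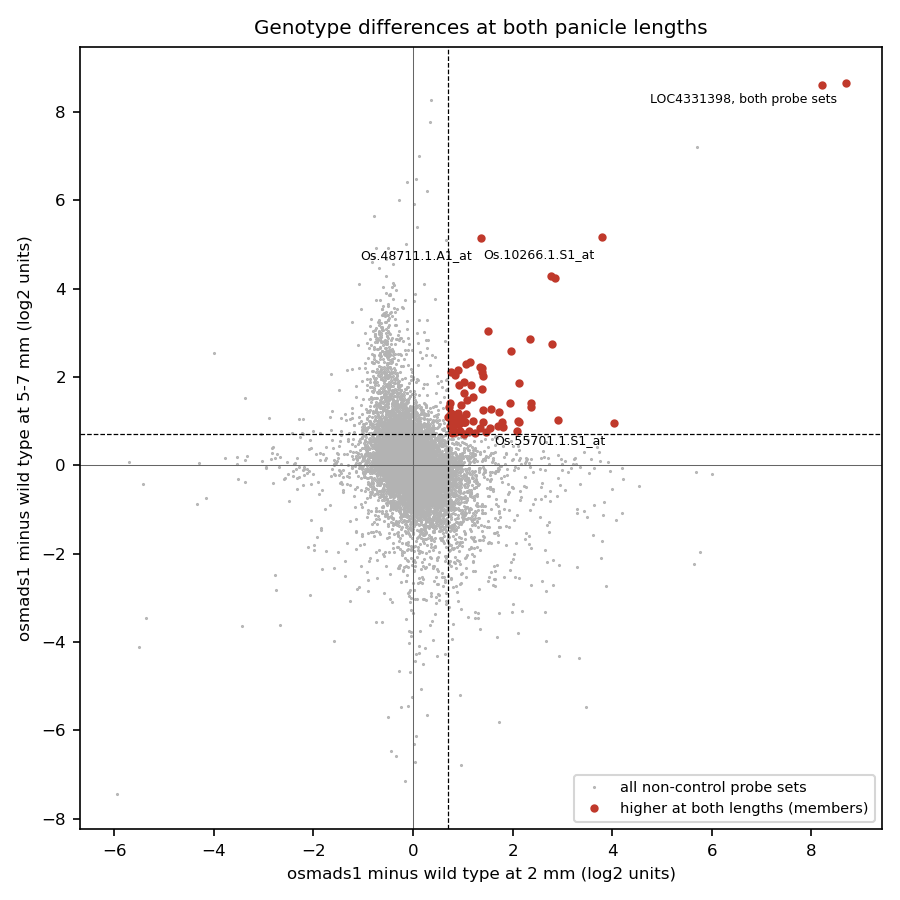
Difference of osmads1 minus wild type in log2 units at 2 mm (horizontal axis) and at 5-7 mm (vertical axis) for all non-control probe sets (grey) and the 72 members (coloured), with the rule's limit of 0.7 drawn on both axes. Both probe sets of LOC4331398 lie alone at about 8 to 9 on each axis, and the single grey point far inside the upper right corner is JAZ2, which was left out.

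Most of these transcripts were moderately abundant. The median member stood at percentile 63.4 of all probe sets in wild type and 76.3 in osmads1 at 2 mm, and at percentiles 56.2 and 73.0 at 5-7 mm. The values carry no detection calls, so the 64 control probe sets for reporter genes served as a guide to the dim end. Wild type read below the upper quartile of those controls for 9 members at 2 mm (upper quartile 3.23) and for 16 at 5-7 mm (3.89). For them a fold is given only as a lower limit, with each wild-type array set to that array's reporter quartile where it read lower.

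The largest difference by far belonged to LOC4331398, a gene on chromosome 3 for which the reference gene table gives no name. Its probe set Os.43929.1.S1_s_at read 11.74, 12.03 and 11.94 in osmads1 against 3.03, 3.41 and 3.22 in wild type at 2 mm. At the longer length it read 12.10, 12.04 and 12.13 in osmads1 and 3.40, 3.51 and 3.37 in wild type. The osmads1 arrays thus read among the bright transcripts of the panicle and the wild-type arrays in the range of the reporter controls, at least 396-fold apart at 2 mm and at least 286-fold at 5-7 mm. The other probe set of the gene, Os.8823.1.S1_at, gave group means of 11.47 and 3.26 at 2 mm, a 294-fold difference, and of 11.67 and 3.05 at 5-7 mm, at least 213-fold. Both probe sets of the gene are members, so the separation of the genotypes on every array was fixed by the rule. The 8 measured genes within 5 places of it in the gene order of assembly ASM3414082v1 did not share this pattern, with differences from -0.24 to 1.16 at 2 mm and from -1.55 to 0.34 at 5-7 mm. OsMADS1 itself also lies on chromosome 3, and whether the difference of LOC4331398 is linked to that locus was not tested.

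LOC4340325, on chromosome 6, came next by the smaller of its differences at the 2 lengths. Its probe set Os.10266.1.S1_at read 8.57, 8.59 and 8.59 in osmads1 against 5.09, 4.44 and 4.81 in wild type at 2 mm, 14-fold higher. On the 5-7 mm arrays it read 10.45, 10.27 and 10.38 against 5.05, 5.39 and 5.17, 35.9-fold higher. A gap of over 3 log2 units lay between the genotypes at each length. A further probe set of the gene, Os.37590.1.S1_at, did not follow, with differences of -0.043 and 0.17 at group means of 4.57 to 6.22, so that 1 of its 2 probe sets read the large difference.

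Several of the larger differences belonged to probe sets for which the platform annotation lists no gene. All 3 members with the ID number OsAffx.28294 were among them. Of these, OsAffx.28294.3.S1_x_at read 6.12, 6.24 and 6.47 in osmads1 against 3.33, 3.70 and 3.27 in wild type at 2 mm. At 5-7 mm it read 8.05, 7.61 and 8.16 against 3.69, 3.84 and 3.61, at least 16.1-fold higher. The remaining pair read at least 4.72-fold (OsAffx.28294.2.S1_x_at) and at least 1.82-fold (OsAffx.28294.2.S1_at) higher at 2 mm, and at least 10.8-fold and 4.33-fold at 5-7 mm. In all 3, wild type stayed near the reporter controls at both lengths, and the x suffix of 2 of them marks that their probes may also bind other transcripts.

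OsAffx.25036.2.S1_at read 7.11, 7.11 and 7.13 in osmads1 against 4.50, 5.10 and 4.71 in wild type at 2 mm, 5.08-fold higher, and was 7.23-fold higher at 5-7 mm. Another probe set with that ID number, OsAffx.25036.1.S1_at, differed by only 0.054 and 0.42. Os.47763.1.A1_at was at least 5.61-fold higher at 2 mm (means of 5.80 and 3.01) and at least 1.89-fold at 5-7 mm (4.85 and 2.11). Os.53606.1.S1_at was 4.38-fold and 3.63-fold higher, at wild-type levels of 4.58 and 6.05. Of these 3, wild type was dim at both lengths for Os.47763.1.A1_at alone. OsAffx.20681.1.S1_at was 3.87-fold and 2.67-fold higher, and at 5-7 mm its osmads1 arrays (4.91, 6.18 and 5.83) came close to the highest wild-type array (4.69).

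**Figure D2:**
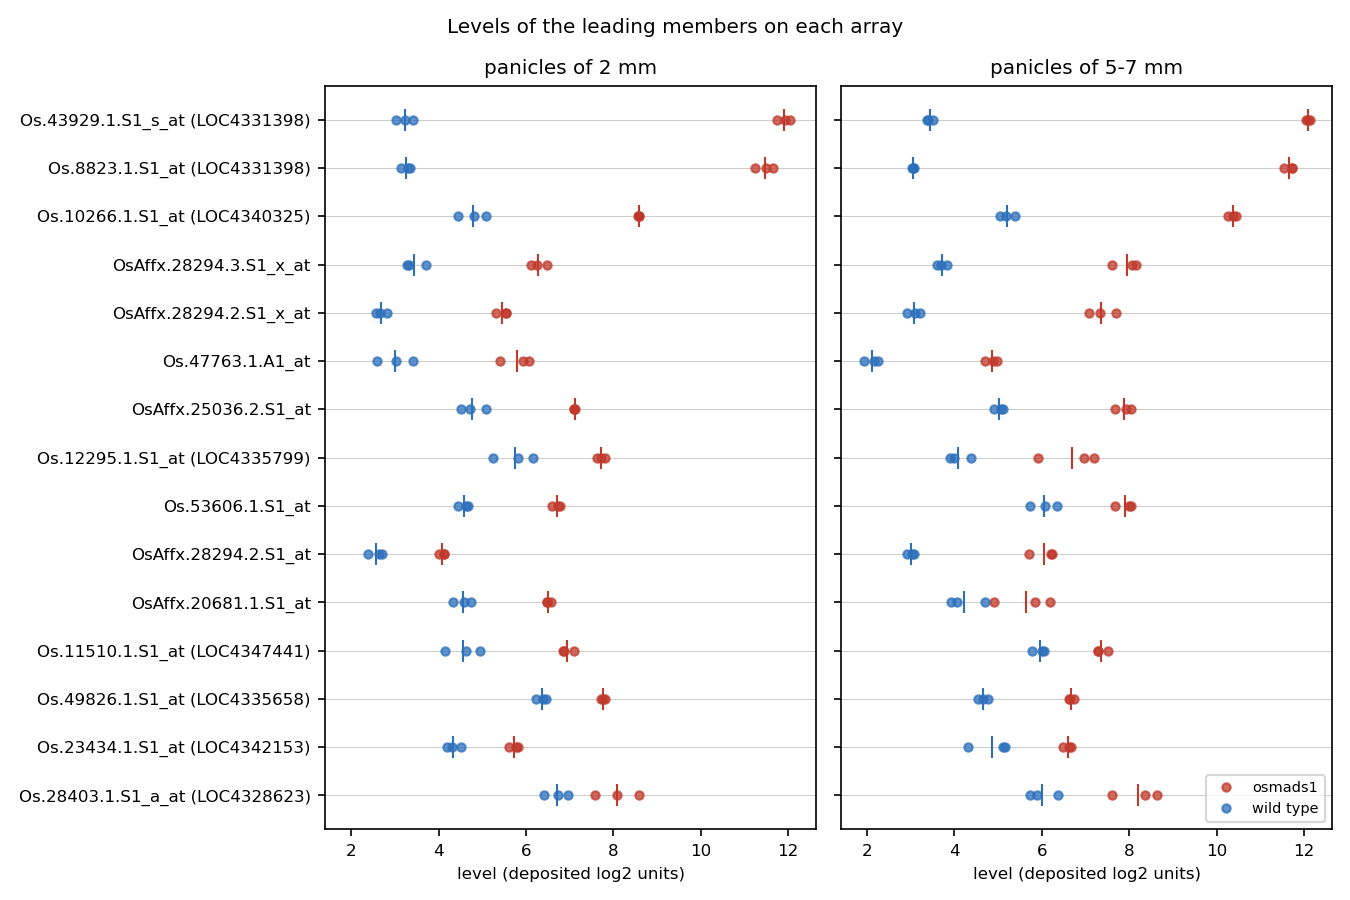
Log2 level on each of the 12 arrays for leading members, 1 row per probe set, for the 15 with the largest smaller-of-both differences, with a point per array of osmads1 (red) and wild type (blue), a tick at each group mean, and separate panels for 2 mm and 5-7 mm. In every row the 3 osmads1 points lie to the right of the 3 wild-type points at each length, by the rule that chose the members, and the rows of LOC4331398 show the widest gap.

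Only 4 of the 38 member genes have an informative name, and they belong to different functions. BGLU30, on chromosome 9, is named as a beta-glucosidase of the family that releases glucose from conjugates and wall sugars. Its probe set Os.11510.1.S1_s_at read 7.43, 7.63 and 7.50 in osmads1 against 5.15, 5.02 and 5.28 in wild type at 2 mm, 5.16-fold higher. The 5-7 mm arrays read 7.49, 7.58 and 7.50 against 6.17, 5.97 and 6.50, 2.48-fold higher. By the rule, the arrays of the genotypes did not overlap at either length. The gene's other probe set, Os.11510.1.S1_at, gave 5.15-fold and 2.66-fold, close to the first.

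The metallothionein gene LOC4352582, on chromosome 12, encodes a small cysteine-rich protein of the type that binds metal ions. Its probe set Os.37783.1.S1_a_at read 6.38, 7.34 and 6.86 in osmads1 against 4.89, 5.20 and 5.40 in wild type at 2 mm, 3.24-fold higher. At the longer length it read 7.34, 7.85 and 7.43 against 6.66, 6.73 and 6.57, 1.85-fold higher. The osmads1 arrays spread more widely than the wild-type arrays, with a range of nearly 1 log2 unit at 2 mm. Os.37783.2.S1_x_at, which the annotation assigns to several genes, was 4.24-fold and 1.72-fold higher, and signals of similar metallothionein transcripts cannot be separated in it.

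RCABP89, listed as LHCP in the current gene table and located on chromosome 3, encodes a chlorophyll-binding protein of the light-harvesting antenna. It read 8.04, 7.64 and 7.78 in osmads1 against 6.74, 6.61 and 6.50 in wild type at 2 mm, 2.30-fold higher. At 5-7 mm it read 7.13, 6.18 and 6.94 against 5.72, 5.79 and 5.77, 1.99-fold higher. One osmads1 array of the longer panicles, replicate 2, lay 0.4 log2 units above the highest wild-type array and apart from the other two. The gene also stands in the list of leaf and green tissue markers, of which 3 of 8 were called higher in osmads1 at each length. The summed linear level of these markers was 733 to 1016 in osmads1 against 452 to 548 in wild type at 2 mm, and 847 to 1468 and 515 to 603 at 5-7 mm. RCABP89, chosen by the rule from these same values, is itself 1 of the 3 called at each length and is part of this sum. The others called were PSAG and PORA at 2 mm, and CAB2R and RCABP69 at 5-7 mm. The RBCS and RCA genes were not called at either length. The part of green tissue in the RCABP89 difference was not tested.

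LTP110-A, on chromosome 11, encodes a lipid transfer protein, of a family of small secreted proteins that bind lipids and are often found at plant surfaces. It was the steadiest of the named members. It read 10.07, 10.11 and 10.08 in osmads1 against 9.15, 9.14 and 9.03 in wild type at 2 mm, 1.98-fold higher. In longer panicles it read 10.50, 10.43 and 10.62 against 9.43, 9.52 and 9.37, 2.11-fold higher. The arrays of a group lay within 0.2 log2 units of each other. The difference was about 1 unit, where the rule already required at least 0.7 with no overlap.

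The gene lists examined are short, and over all genes measured only 38 of 17905 were member genes. At that share a list of this size would hold few members or none, so the counts below are not read as a trait of the members. In 33 lists of rice genes by function or family, photosynthesis and chlorophyll held 1 member among 16 genes (RCABP89) and lipid transfer and cuticle 1 among 9 (LTP110-A). The other 31 lists, MADS-box genes, KNOX, YABBY, SPL, hormone, cell wall and cell cycle genes among them, held 0. Of the 16 photosynthesis genes, 5 were called higher and 0 lower at 2 mm (median difference 0.085), and 4 higher and 0 lower at 5-7 mm (0.072). Of the 9 lipid transfer and cuticle genes, 2 were called higher and 0 lower at 2 mm (-0.016), and 2 higher and 4 lower at 5-7 mm (-0.21). The counts of these lists include the members RCABP89 and LTP110-A. Over all genes with 1 probe set each, 1823 were higher and 2170 lower at 2 mm and 2382 and 3468 at 5-7 mm, of 17905.

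Marker lists of other tissues were read on the same arrays. Of 7 tapetum and anther markers, 5 were called higher at 2 mm and 0 at 5-7 mm, where 1 was lower. Their summed linear level was 452 to 714 in osmads1 against 86.6 to 99.6 in wild type at 2 mm, and 125 to 134 and 207 to 225 at 5-7 mm. None of these markers is a member. Of 3 lodicule and stamen markers 3 were lower at each length, and of 4 carpel and ovule markers 1 was lower at 2 mm and 3 at 5-7 mm. Of 8 seed markers 1 was higher at 2 mm, and 1 was higher and 1 lower at 5-7 mm. The summed linear level of the seed list was 3438 to 6562 in osmads1 against 2628 to 3205 in wild type at 2 mm and 1282 to 2294 against 429 to 520.0 at 5-7 mm, with no overlap at either length. Most of that sum came from EM and RAB21. EM differed by 0.44 at 2 mm, where it was not called, and by 3.76 at 5-7 mm. RAB21 differed by 2.69 at 2 mm and went the other way at 5-7 mm (-2.19). The glutelin genes and VP1 were not called at either length. The part of a changed mixture of tissues in the members' differences was not tested.

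Further members had smaller differences. Among those with a gene, LOC107276217 and LOC4343503 had a larger difference at 5-7 mm than at 2 mm. LOC107276217, on chromosome 2, read 6.57, 6.81 and 6.80 in osmads1 against 5.40, 5.55 and 5.10 in wild type at 2 mm, 2.61-fold higher, and was 4.34-fold higher at 5-7 mm. LOC4343503, on chromosome 7, was 1.80-fold higher at 2 mm, and at 5-7 mm it read 6.51, 6.24 and 6.51 against 4.17, 4.57 and 4.40, 4.12-fold higher. LOC4345187, on chromosome 8, was 3.29-fold higher at 2 mm from a wild-type level of 3.55 and at least 1.88-fold at 5-7 mm, and a change in the size of its difference was not shown (interaction -0.52 ± 0.33, limma, adjusted p = 0.310).

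Some members were bright in both genotypes. LOC4340712, on chromosome 6, had the highest wild-type level of the set. Its probe set Os.48105.1.A1_at read 11.58, 11.25 and 11.41 in osmads1 against 10.69, 10.64 and 10.69 in wild type at 2 mm, 1.67-fold higher. The 5-7 mm arrays read 12.09, 12.05 and 12.15 against 10.52, 10.76 and 10.78, 2.66-fold higher. The gene's other probe set, Os.18395.1.S1_s_at, is not a member. It differed by only 0.20 at 2 mm and by 1.25 at 5-7 mm. LOC4343010, on chromosome 7, had group means of 10.83 and 9.69 at 2 mm and 10.70 and 9.92 at 5-7 mm, and LOC4343418 on the same chromosome 9.56 and 8.22, then 10.59 and 9.75. The rule itself required that the arrays of the genotypes did not overlap in these members. A dim further probe set of LOC4343418, Os.47946.1.S1_at, differed by 0.24 and 0.79.

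The member probe sets of LOC4328727, LOC4338619, LOC4327369, LOC4328142, LOC4345134, LOC9266321 and LOC4340940 had differences of 0.73 to 1.08 at 2 mm and 0.83 to 1.49 at 5-7 mm. The other probe sets of LOC4328727 differed by 0.27 to 0.51 at 2 mm and 0.61 to 1.15 at 5-7 mm. Among members without a gene, OsAffx.4090.1.S1_s_at was 2.22-fold and 5.02-fold higher and OsAffx.14412.2.S1_s_at 3.49-fold and 1.83-fold. Os.9093.1.S1_at was 2.93-fold and 1.78-fold higher. OsAffx.24922.1.S1_at, Os.5516.1.S1_at, Os.9152.1.S1_at, Os.9842.1.S1_at, Os.33723.1.S1_at, Os.39128.1.A1_at and OsAffx.24923.1.S1_at had differences of 0.75 to 1.20 at 2 mm and 0.89 to 1.64 at 5-7 mm. Wild type was dim at both lengths for Os.46053.2.S1_x_at, at least 1.86-fold and 2.11-fold higher, and at 5-7 mm for Os.35046.1.S1_at, 2.25-fold higher at 2 mm and at least 1.96-fold at 5-7 mm. OsAffx.22610.1.S1_at differed by 0.79 and 0.72. The dimmest were OsAffx.10036.1.S1_at, OsAffx.32113.1.S1_at and Os.47763.1.A1_s_at, with wild-type means of 2.29 to 3.30 and osmads1 means of 3.53 to 4.24, where readings lie near those of the reporter controls. At 5-7 mm the osmads1 mean of Os.47763.1.A1_s_at, 3.55, was itself below the reporter upper quartile of 3.89, so no fold is given there.

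Probe sets of 1 gene allow a look at how far a difference extends over a transcript. Of the 38 member genes, 15 have more than 1 probe set on the array, and in 5 of them every probe set is a member. The remaining 20 probe sets of these genes had median differences of 0.30 at 2 mm and 0.52 at 5-7 mm. Of the 20, 14 had a higher mean in osmads1 at both lengths, as did 19.1% of all probe sets, and 7 were higher with no overlap between the genotypes at both lengths, as were 1.5% of all. A gene's probe sets share the RNA of the same arrays and are no replicates of each other.

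LOC4333004, on chromosome 3, had the most probe sets in the set, 5 of 5. Its brightest at 2 mm, Os.39063.1.A1_s_at, read 10.93, 10.90 and 10.91 in osmads1 against 9.99, 9.73 and 9.83 in wild type. At 5-7 mm it read 7.74, 7.93 and 7.90 against 6.86, 6.59 and 6.64. The difference was 2.09-fold and 2.23-fold. Over its 5 probe sets, differences ran from 1.03 to 1.46 at 2 mm and from 0.72 to 1.16 at 5-7 mm. The dimmest, Os.37955.2.S1_at, read 2.83 in wild type at 5-7 mm, below most reporter controls. Its osmads1 mean of 3.55 there was also below their upper quartile of 3.89, so that difference lies among dim readings.

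LOC4345663, on chromosome 8, had 3 of 3 probe sets among the members. Os.7890.1.S1_x_at read 6.99, 6.26 and 6.87 in osmads1 against 5.98, 4.97 and 5.11 in wild type at 2 mm, 2.56-fold higher. On the 5-7 mm arrays it read 8.20, 7.44 and 8.16 against 5.94, 5.53 and 5.7, 4.64-fold higher. Replicate 2 was the lowest array in all 4 groups. LOC4342153, on chromosome 6, had both of its probe sets among the members, with differences of 1.40 and 0.97 at 2 mm and 1.73 and 1.37 at 5-7 mm.

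Other genes were members through 1 probe set. LOC4338151, on chromosome 5, had 6 probe sets, of which 1 was a member. Of the others, 4 had differences of 0.79 to 1.05 at 2 mm and 0.51 to 0.68 at 5-7 mm, under the limit at the longer length. The remaining one, Os.8018.1.A1_at, differed by only 0.18 and -0.075. For LOC4343604, on chromosome 7, Os.28216.2.S1_s_at differed by 1.07 and 2.28 and its 3 other probe sets by 0.33 to 0.46 and -0.048 to 0.63. LOC4340877 had opposite signs at 5-7 mm, 1.05 for its member Os.49281.1.S1_s_at and -0.56 for Os.49281.1.S1_at. For LOC4330554, Os.7097.2.S1_a_at differed by 0.86 and 0.76, and its other probe sets by 0.0030 to 0.17 and -0.073 to 0.11. The other probe set of LOC4350809, Os.52997.1.S1_at, differed by -0.048 and -0.38. Membership of a probe set is thus no statement on every transcript of its gene.

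**Figure D3:**
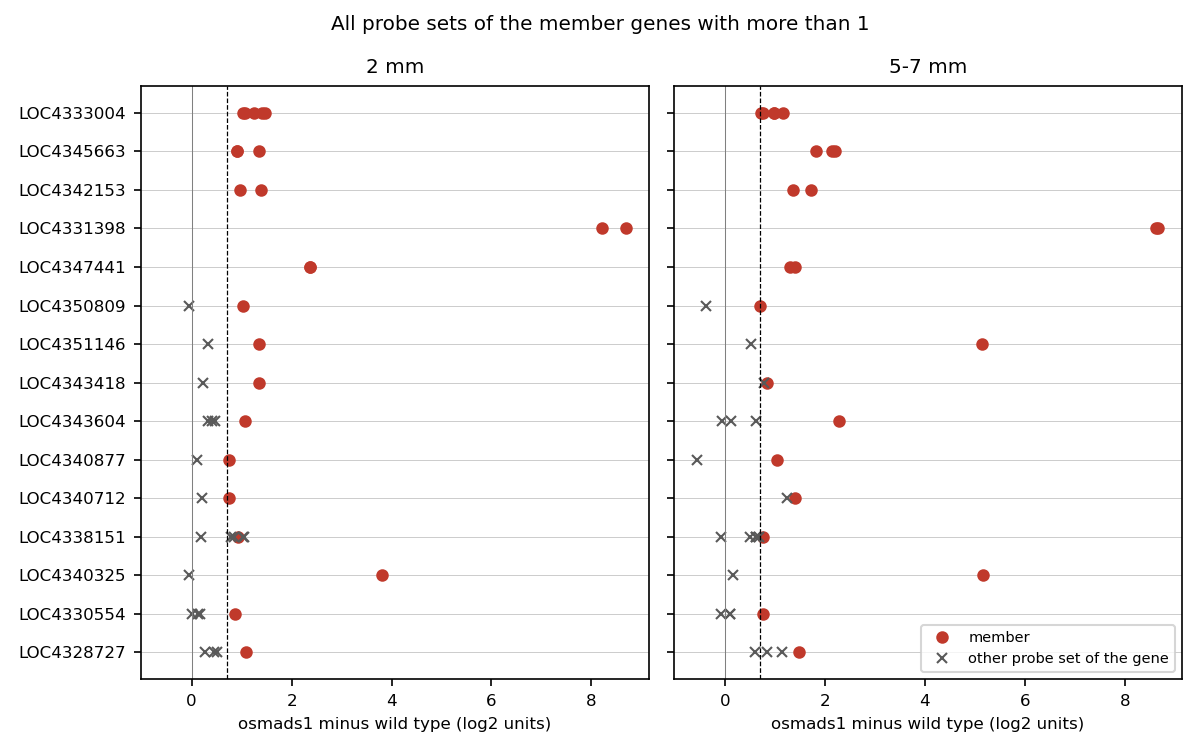
Difference of osmads1 minus wild type in log2 units for each probe set of the member genes with more than 1 probe set, at 2 mm and at 5-7 mm, with members as red points, other probe sets of the same gene as crosses and the limit of 0.7 dashed. The 5 genes whose probe sets are all members stand beside genes such as LOC4340325, in which the other probe set lies near 0.

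The arrays of a group did not spread evenly over these transcripts. Replicate 2 was the lowest osmads1 array for 35 of the 72 members at 2 mm (48.6%, against 35.7% of all probe sets) and for 39 at 5-7 mm (54.2% against 32.2%). In wild type it was the lowest for 39 at 2 mm (54.2% against 31.7%) and for 23 at 5-7 mm (31.9% against 32.0%). In 7 members, of the genes LOC4343604, LOC4328623, LOC4333004, LOC4343418, LOC4350809 and LOC4345663, it was the lowest in all 4 groups, which held for 2.00% of all probe sets. For LOC4328623 (Os.28403.1.S1_a_at), the arrays read 8.60, 7.57 and 8.09 in osmads1 against 6.97, 6.41 and 6.72 in wild type at 2 mm. At 5-7 mm they read 8.65, 7.60 and 8.35 against 6.38, 5.72 and 5.90. The median standard deviation within groups was 0.21 log2 units over the members and 0.13 over all probe sets.

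The size of the genotype difference at one length against the other was not fixed by the rule and was tested. A positive interaction means a larger difference at 5-7 mm. By limma, 23 of the 72 members passed an adjusted p of 0.05 (31.9%, against 22.3% of all probe sets). The difference was larger at 5-7 mm for 14 of them (19.4% against 11.3%) and smaller for 9 (12.5% against 11%). The 14 belong to 9 genes and to 5 probe sets without a gene, 3 of which are OsAffx.28294. For the other 49 members a change in size was not shown. When the dimmer part of the array, below the median level, was left out, 41.4% of the probe sets were called (20.0% larger and 21.4% smaller), and of the 60 members that remained 17 were larger and 11 smaller.

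The widest change toward the longer panicles was in LOC4351146, on chromosome 11. Os.48711.1.A1_at read 8.72, 8.97 and 8.89 in osmads1 against 7.38, 7.63 and 7.51 in wild type at 2 mm, 2.56-fold higher. In longer panicles it read 8.59, 9.27 and 8.84 against 3.46, 3.80 and 4.0, at least 31.2-fold higher. With all arrays quantile normalized together, the osmads1 mean was 9.18 at 2 mm and 8.59 in the longer panicles. On that scale the wild-type mean was 7.84 at 2 mm and 3.46 in the longer panicles. On the deposited values the wild-type arrays of the longer panicles were in or near the range of reporter controls. The interaction was 3.78 ± 0.23 (limma, adjusted p = 1.24e-07). Another probe set of the gene, Os.52208.1.S1_at, differed by 0.33 and 0.52. Its next neighbour in the gene order, LOC4351147, was the nearest probe set outside the rule, with differences of 0.697 and 1.42.

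The 3 OsAffx.28294 probe sets followed, with interactions of 1.53 ± 0.18, 1.51 ± 0.20 and 1.39 ± 0.21 (limma, adjusted p = 4.24e-05, 9.40e-05 and 0.000367). For the pair numbered 28294.2 wild type was dim at both lengths, so their interactions compare readings of which the wild-type ones are only upper bounds. LOC4340325 had an interaction of 1.36 ± 0.19 (limma, adjusted p = 0.000189). LOC4344372, on chromosome 7, read 6.34, 6.21 and 6.25 in osmads1 against 5.33, 5.73 and 5.48 in wild type at 2 mm. At 5-7 mm LOC4344372 read 7.61, 8.11 and 7.82 against 5.63, 5.86 and 5.7. Its difference rose from 0.76 to 2.11, an interaction of 1.36 ± 0.18 (limma, adjusted p = 0.000109). LOC4345663, LOC4343604, LOC4343503 and OsAffx.4090.1.S1_s_at followed with interactions of 1.17 to 1.25. Of the 3 member probe sets of LOC4345663 only 1 passed. Among those that did not was Os.7890.1.S1_x_at, with an interaction of 0.86 ± 0.39 (limma, adjusted p = 0.143).

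The widest change toward the shorter panicles was in LOC4351712, on chromosome 12. Os.55701.1.S1_at read 8.25, 8.41 and 8.37 in osmads1 against 4.38, 4.29 and 4.26 in wild type at 2 mm, 16.4-fold higher. At 5-7 mm it read 6.61, 6.51 and 6.71 against 5.78, 5.46 and 5.76, 1.93-fold higher. The groups stayed apart at both lengths, as the rule required, and the interaction was -3.09 ± 0.13 (limma, adjusted p = 5.42e-09). LOC4342716, on chromosome 7, read 5.40, 5.76 and 5.51 against 2.73, 2.85 and 2.34 at 2 mm, at least 5.04-fold higher, and was at least 1.37-fold higher at 5-7 mm. The interaction of its readings was -1.90 ± 0.22 (limma, adjusted p = 3.97e-05), and since wild type was dim at both lengths, both differences are lower limits and a change in their size was not measured.

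Os.37783.2.S1_x_at of the metallothionein ID had an interaction of -1.30 ± 0.31 (limma, adjusted p = 0.00757). LOC4324844, on chromosome 1, fell from a 4.35-fold to a 1.97-fold difference, an interaction of -1.14 ± 0.22 (limma, adjusted p = 0.00180). LOC4344326, on chromosome 7, went from 4.29-fold to 1.99-fold (-1.11 ± 0.15, limma, adjusted p = 9.72e-05). Both probe sets of BGLU30 were in this group, at -1.06 ± 0.17 and -0.95 ± 0.23 (limma, adjusted p = 0.000427 and 0.00924). RCABP89 (-0.21 ± 0.27) and LTP110-A (0.091 ± 0.11) did not pass, and neither did LOC4331398 (-0.021 ± 0.14 and 0.42 ± 0.14, limma, adjusted p = 0.947 and 0.0527).

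**Figure D4:**
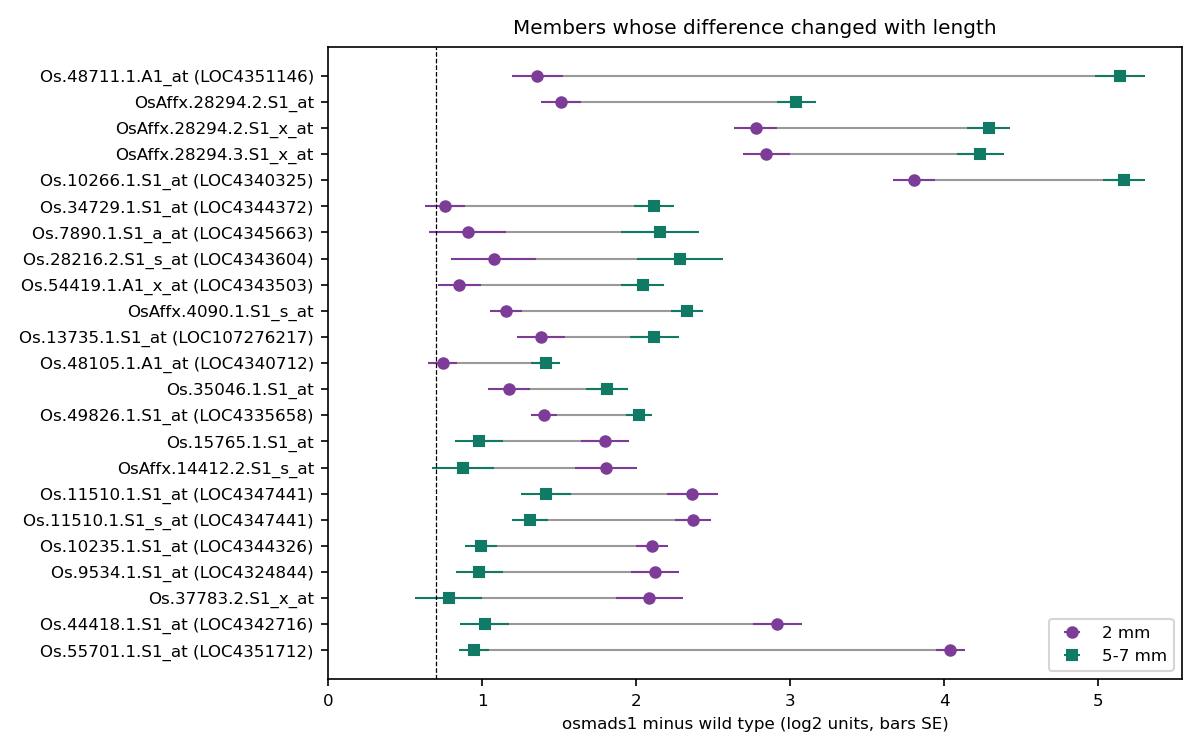
Difference of osmads1 minus wild type in log2 units (horizontal axis, bars SE) at 2 mm (circles) and 5-7 mm (squares) for the 23 members whose interaction passed an adjusted p of 0.05 in limma, ordered by the interaction, with the rule's limit of 0.7 dashed. In the upper 14 rows the square lies to the right of the circle, farthest for LOC4351146, and in the lower 9 to its left, farthest for LOC4351712.

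The course of these transcripts in wild type between the lengths was asked next. The rule used wild-type levels only against osmads1 at the same length, so it did not fix this direction, although the same arrays entered both. Since the deposited scales differ, all 12 arrays were quantile normalized together for this comparison. On that scale 53 of the 72 members passed an adjusted p of 0.05 in limma (73.6%, against 50.3% of all probe sets). In 40 the wild-type level was lower at 5-7 mm (55.6% against 23.7%) and in 13 it was higher (18.1% against 26.5%). Among probe sets above the median level, where 60 of the members lie, the background was higher, with 30.0% called lower and 34.9% called higher. The median change of the members was -0.47 log2 units, against 0.019 over all probe sets.

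The counts depend on the scale. On the deposited values 18 members were lower (25% against 6.26% of all) and 30 higher (41.7% against 73.7%), with a median of 0.20 against 0.61 over all probe sets. With arrays centred on their medians, 46 were lower (63.9% against 51.4%) and 12 higher (16.7% against 16.4%). Relative to all probe sets the members' median was lower by 0.40 on the deposited scale. Of the 40 lower calls, 27 were also below 0 on the deposited values, 18 of them called, and 3 were called higher there (OsAffx.24923.1.S1_at, LOC4340325 and LTP110-A).

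The widest falls from the shorter to the longer wild-type panicles were wide on each scale. LOC4351146 fell by 4.37 ± 0.16 (limma, adjusted p = 8.01e-10), and by 3.75 on the deposited values. For LOC4333004, 5 of 5 probe sets fell, Os.39063.1.A1_s_at by 3.83 ± 0.087 (limma, adjusted p = 1.26e-11; 3.15 on the deposited values) and the others by 2.32 to 2.99. LOC4335658, on chromosome 4, fell by 2.49 ± 0.080 (limma, adjusted p = 3.39e-10). Os.35046.1.S1_at, without a gene, fell by 2.39 ± 0.13 (limma, adjusted p = 2.46e-08). LOC4335799, also on chromosome 4, fell by 2.38 ± 0.29 (limma, adjusted p = 2.77e-05). It read 7.73, 7.62 and 7.81 in osmads1 against 6.16, 5.25 and 5.82 in wild type at 2 mm, and 7.19, 5.91 and 6.96 against 4.37, 4.0 and 3.90 at 5-7 mm. RCABP89 fell less than these and than several other members, by 1.62 ± 0.19 (limma, adjusted p = 1.92e-05), and by 0.86 on the deposited values.

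Among the 13 members that were higher in longer wild-type panicles, Os.37783.2.S1_x_at rose by 2.23 ± 0.22 (limma, adjusted p = 5.56e-06) and LOC4340877, on chromosome 6, by 2.00 ± 0.14 (limma, adjusted p = 2.36e-07). Os.15765.1.S1_at, without a gene, rose by 1.90 ± 0.15 (limma, adjusted p = 1.04e-06), and LOC4330554, on chromosome 2, by 1.72 ± 0.19 (limma, adjusted p = 1.07e-05). These 4 rose on each of the 3 scales. Os.15765.1.S1_at read 9.08, 9.06 and 9.17 in osmads1 against 7.09, 7.59 and 7.24 in wild type at 2 mm, and 10.71, 10.76 and 11.06 against 10.06, 10.02 and 9.51 at 5-7 mm. The metallothionein gene LOC4352582 rose by 0.73 ± 0.22 (limma, adjusted p = 0.0140). For LOC4331398, whose probe sets count among the 40 lower calls, the changes of -0.34 and -0.68 lie among dim readings at both lengths.

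**Figure D5:**
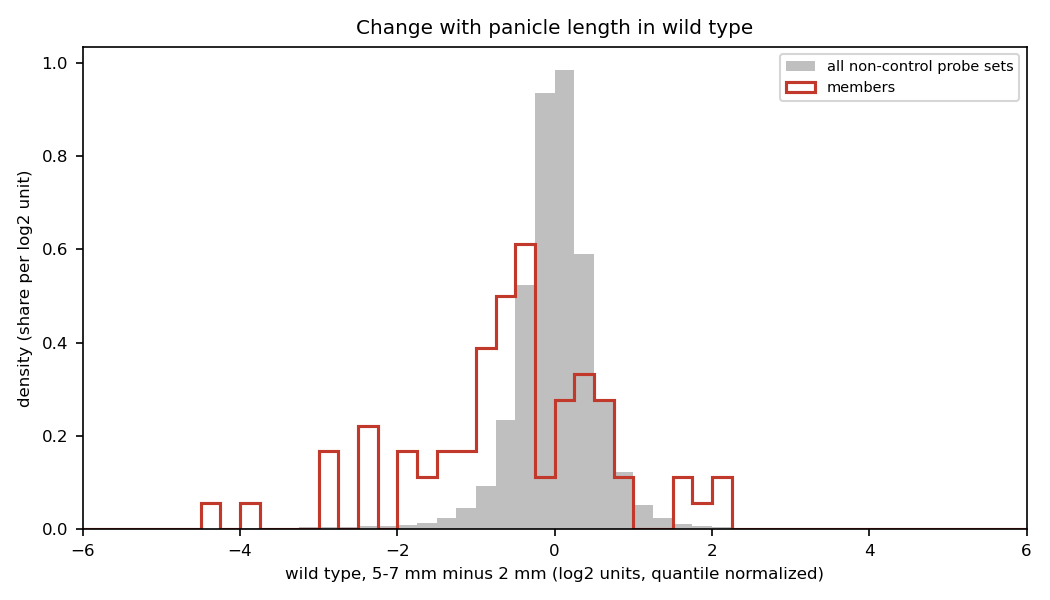
Distribution of the change of the wild-type level from 2 mm to 5-7 mm (horizontal axis, log2 units after quantile normalization of all 12 arrays; vertical axis, share per log2 unit) for the members (outline) and for all probe sets (grey). The members' median lies at -0.47 and that of all probe sets at 0.019, and 40 members were called lower and 13 higher.

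The member genes lay on 11 of the 12 rice chromosomes in assembly ASM3414082v1. Chromosome 7 held 8 of the 38 (21.1%, against 7.67% of all genes measured) and chromosome 10 held 0. No member gene had another within 5 places in the gene order. LOC4325215, on chromosome 1, read 4.87, 5.06 and 5.03 in osmads1 against 3.41, 3.38 and 3.44 in wild type at 2 mm, and its measured neighbours went other ways. On one side LOC4325216 was lower in osmads1 by 5.36 and 3.45 log2 units, and on the other LOC4325213 differed by 2.24 at 2 mm and by 0.042 at 5-7 mm.

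Of the 72 probe sets 47 have 1 gene in the platform annotation (65.3%, against 39.2% of all), 24 have none and 1 has several. IDs that start with OsAffx make up 16.7% of the members and 44.6% of all probe sets. Probe sets with the s suffix, shared by several transcripts, make up 15.3% against 4.92%, and those with the x suffix 12.5% against 12.5%. For such probe sets similar transcripts of other genes may add to the reading.

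Differences ran on across the limit of the rule. Just inside, the smaller of the 2 differences was 0.709 for LOC4343816, 0.711 for LOC4350809 and 0.721 for Os.37955.2.S1_at of LOC4333004. Just outside, it was 0.697 for LOC4351147, 0.697 for LOC4327506 and 0.691 for LOC4329572.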

How the data were processed

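Per the labels, total RNA was isolated from panicles with Trizol, and biotin-labelled cRNA was made with an Affymetrix 3' kit, whose signal comes mostly from transcript ends. Values are log2 levels per probe set, which the authors made with Partek and RMA per the submitters' processing notes (versions: not given in the sources used here). Arrays of a length have nearly equal distributions and the lengths differ, so genotype differences were taken within a length on the deposited values. RMA gives no detection call and understates differences of dim probe sets.

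From the 12 arrays, 187 controls were left out and 57194 probe sets were kept without a filter. limma 3.58.1 in R 4.3.3 fitted 1 mean per group over all arrays (residual degrees of freedom 8, prior 4.74), with two-sided Benjamini-Hochberg adjusted p-values over all probe sets. SE are from this fit and SD are over 3 arrays of a group. The interaction used the deposited log2 values, and the wild-type change between lengths used quantile normalization of all arrays. Gene and marker lists take 1 probe set per gene. Gene symbols came from the platform annotation and were updated through the reference gene table (assembly ASM3414082v1), which also gave chromosomes and gene order; no sequence was used. The fits were tested on simulated arrays. The rule, the members and the lists were chosen with earlier results of these data known. Genes named were the 15 largest smaller-of-both differences, those with an informative name, the largest interactions and wild-type changes, those nearest the limit, list members and genes with other probe sets; the remaining members were added so that each is accounted for, after their values were seen. Same-numbered arrays of the 2 genotypes did not deviate together (correlations of -0.068 to 0.084), so the numbers were not used as pairs. Alternatives were other scalings, other limits, filters, variance settings, array weights, 1 probe set per gene, a replicate block and leaving out each array. Per the series text the repeats are biological, and 3 arrays per group limit the precision.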

Additional observations from a re-analysis of the deposited data

Results flagged for a closer look

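The genotype difference changed between panicle lengths, by the interaction term of the limma fit, for 14 members in which it was larger at 5-7 mm and for 9 in which it was smaller, which is what brought the following probe sets here. Larger at 5-7 mm were Os.48711.1.A1_at of LOC4351146 (an interaction of 3.78), OsAffx.28294.2.S1_at (1.53), OsAffx.28294.2.S1_x_at (1.51) and OsAffx.28294.3.S1_x_at (1.39). Smaller were Os.55701.1.S1_at of LOC4351712 (-3.09), Os.44418.1.S1_at of LOC4342716 (-1.90), Os.37783.2.S1_x_at (-1.30) and Os.9534.1.S1_at of LOC4324844 (-1.14). In LOC4351146 and the 3 OsAffx.28294 probe sets the wild-type arrays of the longer panicles read in or near the range of the reporter controls. LOC4342716 and the pair numbered OsAffx.28294.2 read there in wild type at both lengths, so for them the interaction compares readings and not measured sizes of the difference.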

How the results depend on the processing

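The number of probe sets that met the rule was 138 at a limit of 0.5 and 31 at a limit of 1, against 72 at 0.7. Quantile normalization gave 78, of which 70 were among the 72, and median centring 76, with all 72 among them. Leaving out 1 array at a time gave 71 to 80 (68 to 72 of the reported members), 12 to 17 larger and 8 to 12 smaller interactions, and 12 to 14 rises and 37 to 41 falls in wild type. On the deposited values 30 members rose and 18 fell in wild type, against 13 and 40 after quantile normalization, since the arrays of longer panicles have higher deposited medians. With a replicate block, the interaction counts were 19 and 13 and the wild-type counts 14 and 41. With 1 member probe set per gene or ID number, an alternative added after the data were seen, the interaction counts were 11 and 8 of 60 and the wild-type counts 12 and 33. The 8 interactions and 8 wild-type changes that were recomputed singly, the 4 widest each way, kept their direction and their side of the threshold. Among all members, 13 of the 40 falls were above 0 on the deposited values and 3 of them were called higher there. Of the single genotype differences recomputed, 2 at 2 mm and 3 at 5-7 mm moved by more than 1 SD between arrays, none of them in sign.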
